A study of Mus musculus with 16 samples.

Results

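A set of 8 genes of the unfolded protein response was followed through 16 microarray libraries of sorted olfactory mucosa cells: Hspa5, Ddit3, Atf4, Xbp1, Eif2ak3, Ern1, Trib3 and Herpud1. They were chosen by gene symbol as the sensors, transcription factors and best known targets of the response, and all 8 were measured among 19505 named genes. Ddit3 had a second probe set, so the probe set with the higher mean stands for it, and its second one is given beside it. Of the 8 genes, 0 passed the test between the titled sorts in odor pools, 3 passed in vehicle pools, and 0 passed between odor and vehicle in either sort.

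The unfolded protein response keeps the folding capacity of the endoplasmic reticulum (ER) matched to the load of new proteins. Misfolded proteins are sensed by PERK, encoded by Eif2ak3, and IRE1, encoded by Ern1, among others. PERK slows translation while it raises ATF4, and IRE1 splices Xbp1 mRNA into its active form. In olfactory sensory neurons the PERK arm has a further known role in mice, as a step in the feedback by which an expressed odorant receptor stabilises the choice of that receptor.

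Cells came from S100a5-tauGFP mice on C57BL/6, a line that expresses a GFP reporter with S100a5, a calcium-binding protein of olfactory neurons whose mRNA follows their activity. All 24 mice, males and females aged 7 to 12 weeks, were kept for 40 h in chambers with clean air at 3.1 L/min, and from 26 h on received pulses of 10 s every 20 min. The 4 groups of 4 libraries are odor (isoamyl acetate) titled GFP+, odor titled GFP-, vehicle (clean air) titled GFP+ and vehicle titled GFP-. Cells of 3 mice were pooled for a sort, and both a titled GFP+ and a titled GFP- library came from each of the 8 pools, numbered 1 to 4 within each agent. The replicates are thus different pools, and the 2 sorts of a pool share their mice.

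For every one of the 16 libraries, title and cell type field disagree on the sign of GFP, so the groups keep the name of their title. S100a5 went against the titles: it averaged 15.49 ± 0.31 in odor titled GFP+ and 16.75 ± 0.18 in odor titled GFP- libraries (log2 signal, SD, n = 4 each), while vehicle libraries had 15.21 ± 0.47 when titled GFP+ and 16.39 ± 0.20 when titled GFP-. It was lower in the library titled GFP+ in 8 of 8 pools. Every direction between the sorts below rests on the titles. Of 28 markers of mature olfactory neurons, 26 or 27 exceeded the median negative control on all 4 arrays of each group, and Cnbd2 exceeded it on 0.

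Since the response acts largely through transcription, the letters upstream of the members that carry its known DNA elements, or that differed between the sorts, are shown first. Each line holds the 120 bases before the transcription start in RefSeq (mouse build GRCm38.p6), read 5′ to 3′ along the gene's own strand, and all 8 members matched 1 promoter each. Capitals mark the fixed letters of an ER stress element (ERSE, CCAAT and CCACG with 9 bases of any kind between them), of the related ERSE-II (ATTGG and CCACG with 1 base of any kind between them) or of a C/EBP-ATF response element (CARE, TGATGNAA).
Hspa5 (chr2:34771970-34772089, plus strand): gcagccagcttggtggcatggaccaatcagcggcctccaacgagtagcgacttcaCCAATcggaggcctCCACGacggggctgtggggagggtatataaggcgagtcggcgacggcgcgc
Herpud1 (chr8:94386309-94386428, plus strand): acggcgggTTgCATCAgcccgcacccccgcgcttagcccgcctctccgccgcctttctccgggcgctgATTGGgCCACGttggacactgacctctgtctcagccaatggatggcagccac
Xbp1 (chr11:5520521-5520640, plus strand): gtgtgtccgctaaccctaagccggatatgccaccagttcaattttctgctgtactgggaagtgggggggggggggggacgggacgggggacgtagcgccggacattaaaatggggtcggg
Ern1 (chr11:106487797-106487916, minus strand): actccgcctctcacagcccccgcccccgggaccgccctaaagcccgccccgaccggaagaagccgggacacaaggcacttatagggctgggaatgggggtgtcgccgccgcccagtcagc
Trib3 (chr2:152344061-152344180, minus strand): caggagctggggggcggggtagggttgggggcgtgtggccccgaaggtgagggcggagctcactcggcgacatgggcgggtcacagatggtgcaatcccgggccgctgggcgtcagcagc

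The elements were searched on both strands from 250 bases before to 50 after the start. Hspa5 held an ERSE at -65 to -47, an element present in 0.119% of 32851 promoters. Herpud1 held an ERSE-II at -52 to -42, present in 0.0365%, and a CARE at -112 to -105 on the opposite strand, present in 3.97%. Trib3 held a CARE at 14 to 21 bases after the start, on the opposite strand and outside the stretch printed. The XBP1-bound element UPRE (TGACGTGG), present in 0.676% of promoters, was found in 0 members. For Xbp1, Ern1, Atf4, Ddit3 and Eif2ak3 none of the 4 letter strings lay in this window.

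Values below are log2 signals, where 1 unit stands for a factor of 2, and a probe set's level cannot be set against another's. Sort differences are titled GFP+ minus titled GFP-, and odor effects are odor minus vehicle. A gene is called changed at an adjusted p under 0.05 in limma, fitted to all 22206 probe sets, and intervals are 95% intervals of single genes, not adjusted for the number of genes. All 8 members lay above the median negative control of every array. Against the 95th percentile of the negative controls, which ran from 9.39 to 10.09, 6 members were higher on all 16 arrays. Ern1 exceeded it in 2 vehicle libraries titled GFP+ and in no other library. Trib3 exceeded it in 3 odor titled GFP+, 4 odor titled GFP-, 2 vehicle titled GFP+ and 4 vehicle titled GFP- libraries.

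The array as a whole sets the background for the sort comparisons. In odor pools 20.9% of all probe sets were called between the sorts, 11.0% higher and 9.86% lower in titled GFP+, and 0 of the 8 members were called (0 at an unadjusted p under 0.05 in limma; a replicate block by pool made this 3, namely Xbp1, Ern1 and Trib3). In vehicle pools 17.3% were called, 10.2% higher and 7.16% lower, and 3 of the 8 members were called: Xbp1 and Ern1 higher, Trib3 lower. Over the 8 members the median difference was -0.01 in odor pools and 0.10 in vehicle pools, beside -0.14 and -0.13 over all probe sets. The deposited arrays do not share a common median. Subtracting each array's own median, called a common array median below, moved the median over all probe sets to -0.50 in both agents. Quantile normalization, which also gives the arrays a common median, left it at -0.14 in odor and -0.13 in vehicle pools. Among the member calls quantile normalization changed only that of Ern1 in vehicle pools, which was lost. After the subtraction 5 of 8 members were lower and 0 higher in odor pools (Hspa5, Ddit3, Eif2ak3, Trib3 and Herpud1, beside 0 called as deposited). In vehicle pools 3 were lower and 0 higher (Ddit3, Trib3 and Herpud1, beside 2 higher and 1 lower as deposited). Calls between the sorts below therefore hold for the deposited scale.

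Of the sensors, Ern1 was called in vehicle pools and Eif2ak3 in neither agent on the deposited scale. Eif2ak3, the PERK kinase, ranged from 11.90 to 12.52 over all 16 libraries. Its means were 12.16 ± 0.31 in odor titled GFP+, 12.17 ± 0.15 in odor titled GFP-, 12.19 ± 0.11 in vehicle libraries titled GFP+ and 12.10 ± 0.07 in vehicle titled GFP- (SD, n = 4 each). The sorts differed by -0.00 in odor pools (interval -0.30 to 0.30, limma adjusted p = 0.995) and by 0.09 in vehicle pools (-0.21 to 0.39, adjusted p = 0.709). Its groups overlapped in both agents. With a common array median it was called in odor pools, at -0.37 (adjusted p = 0.0340), and was at -0.28 in vehicle pools (adjusted p = 0.0900).

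Ern1 encodes IRE1, the kinase and RNase that splices Xbp1. It had 9.49, 9.31, 9.08 and 9.48 in odor titled GFP+ libraries of pools 1 to 4, against 9.24, 8.99, 8.93 and 9.15 in odor titled GFP- libraries. In vehicle pools it had 9.43, 9.54, 9.61 and 9.50 in titled GFP+ libraries, against 9.01, 9.30, 9.22 and 9.01 in titled GFP- libraries. The library titled GFP+ was the higher one in 8 of 8 pools, by 0.15 to 0.49. The vehicle groups did not overlap, while the odor groups did. Among the 8 members, groups without overlap were found for 0 in odor pools, beside 21.9% of all probe sets, and for Ern1 and Xbp1 in vehicle pools, beside 23.3%. The difference was 0.26 in odor pools (SE 0.13, interval -0.01 to 0.52, limma adjusted p = 0.162) and 0.38 in vehicle pools (SE 0.13, 0.12 to 0.65, adjusted p = 0.0442). The vehicle call passed by little: leaving out any 1 vehicle pool ended it (adjusted p 0.0811 to 0.165). It was also lost under quantile normalization, a common array median, centring on neuron markers, a variance trend and a fit of the vehicle libraries alone. It stood in 2 of 12 alternatives, in which the value ran from 0.01 to 0.46 and the adjusted p from 0.0159 to 0.928.

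Among the transcription factors, Xbp1 differed between the sorts in vehicle pools, and Atf4 and Ddit3 did not pass in either agent on the deposited scale. Xbp1, whose spliced form drives ER chaperone, degradation and secretory genes, had 12.65, 12.99, 12.17 and 11.93 in odor titled GFP+ libraries, against 12.17, 12.21, 11.96 and 11.83 in odor titled GFP- libraries. In vehicle pools it had 12.48, 12.40, 12.36 and 12.81 in titled GFP+ libraries, against 11.43, 12.06, 11.80 and 12.01 in titled GFP- libraries. The probe set reads total Xbp1 signal, so splicing is not measured by these values. The library titled GFP+ was higher in 8 of 8 pools, by 0.10 to 1.05, and the vehicle groups did not overlap. The odor groups overlapped, as pools 3 and 4 titled GFP+ lay within the titled GFP- range.

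The Xbp1 difference was 0.39 in odor pools (SE 0.21, interval -0.05 to 0.83, limma adjusted p = 0.200) and 0.68 in vehicle pools (SE 0.21, 0.24 to 1.12, adjusted p = 0.0299). With the pool as a replicate block, which uses that the sorts of a pool share mice, the vehicle value had an SE of 0.15 and an adjusted p of 0.00913. The call was lost without vehicle pool 1 (0.56, adjusted p = 0.157), without vehicle pool 3 (0.72, adjusted p = 0.0743) and without vehicle pool 4 (0.65, adjusted p = 0.100). With a common array median the value was 0.31, with an adjusted p of 0.167. Over 13 alternatives the value stayed between 0.31 and 0.80 and the adjusted p between 0.00884 and 0.167. The 2 odor libraries with the highest Xbp1, those titled GFP+ of pools 1 and 2, were also those with the highest summed B and plasma cell markers (11.31 and 11.16, against 9.54 and 9.59 in pools 3 and 4). The same 2 libraries had the highest macrophage, sustentacular and progenitor sums of their group. For neutrophil and microvillar cell markers the highest sums of that group were in pools 1 and 4. In vehicle libraries titled GFP+ the highest Xbp1 was in pool 4, whose B and plasma cell sum of 10.20 was below those of pools 1 and 2. The part of any of these cell types in the Xbp1 difference was not tested.

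Atf4, the transcription factor translated under PERK signalling, had means of 14.73 ± 0.20 in odor titled GFP+, 14.65 ± 0.18 in odor titled GFP-, 14.64 ± 0.24 in vehicle libraries titled GFP+ and 14.49 ± 0.17 in vehicle titled GFP- libraries (SD, n = 4 each). Its sorts differed by 0.08 in odor pools (interval -0.24 to 0.40) and 0.14 in vehicle pools (-0.17 to 0.46), with limma adjusted p of 0.743 and 0.551. Atf4 protein is set largely by translation, which these arrays do not read. Its lowest library was that of pool 3 in 4 of 4 groups, where odor pool 3 and vehicle pool 3 hold different mice.

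Ddit3 encodes CHOP, a pro-apoptotic factor induced by ATF4. It had 11.98, 12.03, 11.86 and 12.18 in odor titled GFP+ libraries, against 12.12, 11.57, 12.08 and 12.56 in odor titled GFP- libraries. Vehicle libraries titled GFP+ held 11.97, 11.27, 11.43 and 11.88, against 11.90, 11.58, 11.91 and 11.94 in those titled GFP-. The groups overlapped in both agents, and 6 of 8 pools were lower in titled GFP+. The differences were -0.07 in odor pools (interval -0.48 to 0.34, limma adjusted p = 0.823) and -0.20 in vehicle pools (-0.61 to 0.21, adjusted p = 0.527). With a common array median Ddit3 was called lower in both, at -0.44 in odor pools (adjusted p = 0.0420) and -0.57 in vehicle pools (adjusted p = 0.0130). The second Ddit3 probe set, at 9.35 to 10.49, gave -0.24 and -0.23, with adjusted p of 0.294 and 0.341.

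Trib3 fell in titled GFP+ libraries of vehicle pools, opposite in sign to Xbp1 and Ern1. It encodes a pseudokinase that is induced by ATF4 and CHOP and damps AKT signalling. It had 9.84, 10.03, 10.69 and 10.58 in odor titled GFP+ libraries, against 10.50, 10.06, 11.09 and 10.95 in odor titled GFP- libraries. Vehicle pools gave 9.65, 8.92, 9.30 and 10.07 in titled GFP+ libraries, against 10.43, 10.01, 10.40 and 10.68 in titled GFP- libraries. The library titled GFP+ was lower in 8 of 8 pools, by as little as 0.03 in an odor pool and as much as 1.11 in a vehicle pool. Even so the vehicle groups overlapped, since pool 4 titled GFP+ lay above pool 2 titled GFP-.

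The difference in Trib3 was -0.37 in odor pools (SE 0.27, interval -0.93 to 0.20, limma adjusted p = 0.362) and -0.89 in vehicle pools (SE 0.27, -1.46 to -0.33, adjusted p = 0.0285). The odor value was -0.73 with a common array median and passed the test (adjusted p = 0.0228). With the pool as a replicate block the vehicle value had an SE of 0.13 and an adjusted p of 0.000851. The call was lost without vehicle pool 1 (-0.93, adjusted p = 0.0854), pool 2 (-0.83, adjusted p = 0.0775) or pool 3 (-0.82, adjusted p = 0.121), and when arrays were centred on neuron markers (-0.82, adjusted p = 0.0583). Over 13 alternatives it ranged from -1.26 to -0.82, with adjusted p from 4.68e-05 to 0.121. Without vehicle pool 1 or pool 3, 0 of the 8 members were called, and without pool 2 or pool 4, 1 was.

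The chaperone and the degradation factor were called in neither agent on the deposited scale. Hspa5 encodes BiP, the main ER chaperone, whose release from the sensors goes with the onset of the response. It had 16.49, 16.70, 16.32 and 16.44 in odor titled GFP+ libraries, against 16.54, 16.60, 16.32 and 16.53 in odor titled GFP- libraries. Vehicle libraries titled GFP+ had 16.49, 16.51, 16.40 and 16.40, against 16.24, 16.54, 16.30 and 16.30 in those titled GFP-. Its 16 values spanned 0.47, the least of the 8 members, and the sorts overlapped in both agents. Its highest library was that of pool 2 in 4 of 4 groups, where the 2 sorts of a pool share mice and odor and vehicle pools hold different mice. The sort difference was -0.01 in odor pools (interval -0.26 to 0.24, limma adjusted p = 0.960) and 0.10 in vehicle pools (-0.14 to 0.35, adjusted p = 0.581), and with a common array median it was -0.38 in odor pools (adjusted p = 0.0109) and -0.27 in vehicle pools (adjusted p = 0.0506).

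Herpud1 encodes a membrane protein of ER-associated degradation. Its means were 15.31 ± 0.18 in odor titled GFP+, 15.51 ± 0.19 in odor titled GFP-, 15.19 ± 0.12 in vehicle libraries titled GFP+ and 15.45 ± 0.10 in vehicle titled GFP- libraries (SD, n = 4 each). It was lower in titled GFP+ in 7 of 8 pools. The difference was -0.20 in odor pools (interval -0.47 to 0.07, limma adjusted p = 0.295) and -0.25 in vehicle pools (-0.53 to 0.02, adjusted p = 0.198), neither past the threshold on the deposited scale. With a common array median it passed in both, at -0.57 (adjusted p = 0.00158) and -0.63 (adjusted p = 0.000938).

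**Figure D1:**
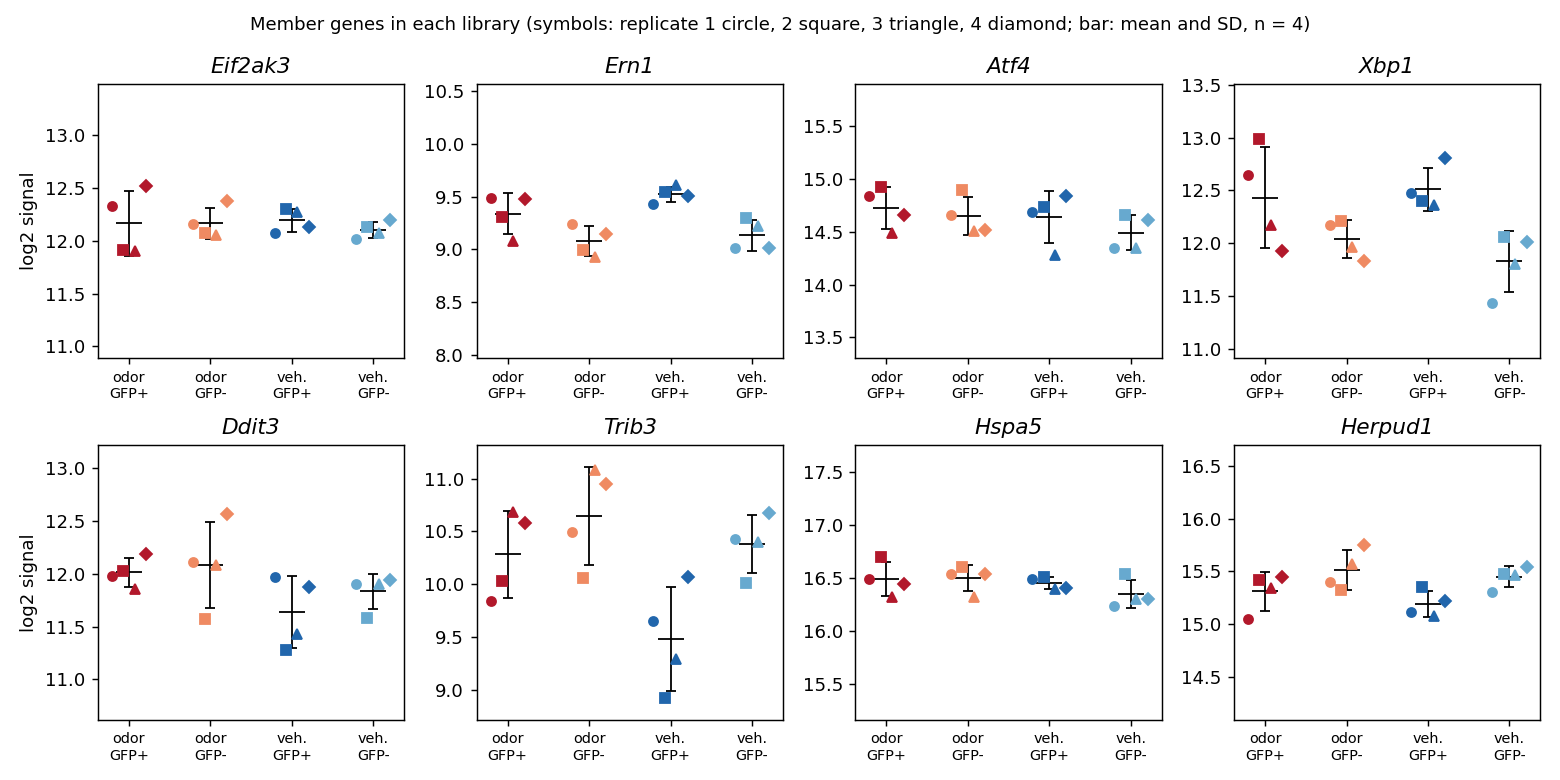
Log2 signal of the 8 member genes in each of the 16 libraries, with 1 panel per gene and axes of equal height. Symbols stand for pools 1 to 4, and the black bars for the mean and SD of 4 libraries. In vehicle libraries Xbp1 and Ern1 of titled GFP+ lie above those of titled GFP- without overlap, and Trib3 lies lower with an overlap of pool 4 and pool 2.

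**Figure D2:**
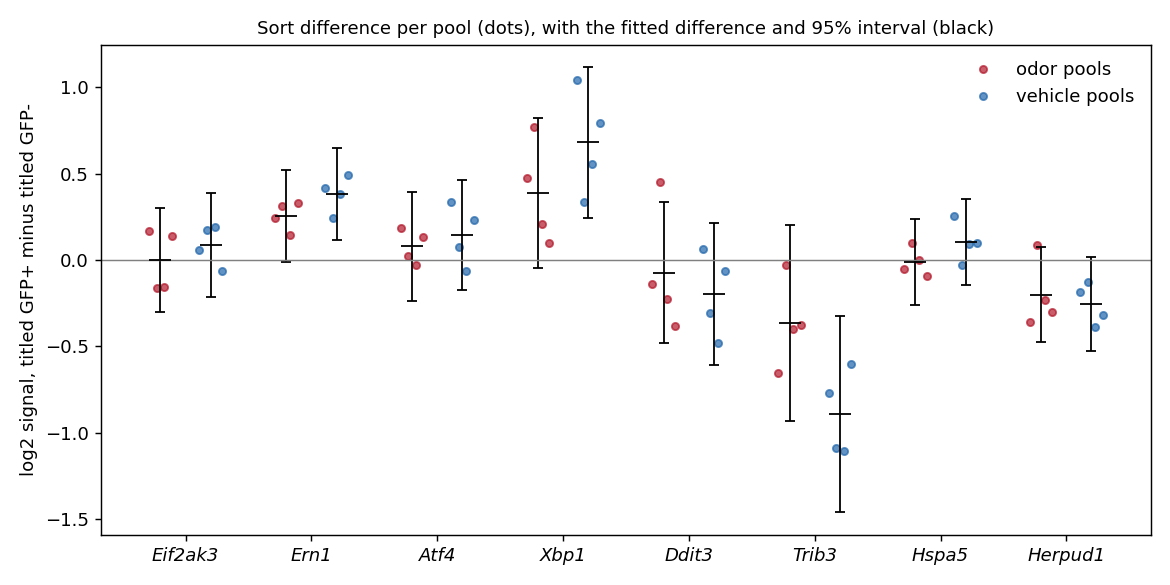
Sort difference (log2 signal, titled GFP+ minus titled GFP-) of the 8 members in each pool, odor pools left of vehicle pools. Dots are pools, and black marks give the fitted difference with its 95% interval. All 8 pools lie above 0 for Xbp1 and Ern1 and all 8 below 0 for Trib3.

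No member was called between odor and vehicle. In titled GFP+ libraries 0.00901% of all probe sets were called (2 of 22206, with 1072 at an unadjusted p under 0.05), and in titled GFP- libraries 0.0180% (4, with 733 unadjusted). Trib3 had the largest value of the 8: it averaged 10.28 ± 0.41 in odor titled GFP+ and 9.49 ± 0.49 in vehicle titled GFP+ libraries (SD, n = 4 each). The odor effect of 0.80 (SE 0.27, interval 0.23 to 1.37) had an unadjusted limma p of 0.00871 and an adjusted p of 0.968, and the groups overlapped. In titled GFP- libraries its odor effect was 0.27 (-0.30 to 0.84, adjusted p = 1.00). Trib3 was the only member at an unadjusted p under 0.05 in titled GFP+ libraries, and in titled GFP- libraries there was none.

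Ddit3, of the same PERK branch, had an odor effect of 0.38 in titled GFP+ (interval -0.03 to 0.79) and 0.25 in titled GFP- libraries (-0.16 to 0.66). Its second probe set gave 0.38 and 0.39, with unadjusted limma p of 0.0260 and 0.0225 and adjusted p of 0.968 and 1.00. In titled GFP+ its odor and vehicle groups did not overlap, as for 2.63% of all probe sets. For Hspa5 the odor effect was 0.04 in titled GFP+ (-0.21 to 0.29) and 0.15 in titled GFP- libraries (-0.09 to 0.40). For Xbp1 it was -0.08 (-0.51 to 0.36) and 0.22 (-0.22 to 0.65). The remaining members, Ern1, Atf4, Eif2ak3 and Herpud1, had odor effects between -0.18 and 0.15 in the 2 sorts, all with a limma adjusted p of at least 0.968.

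**Figure D3:**
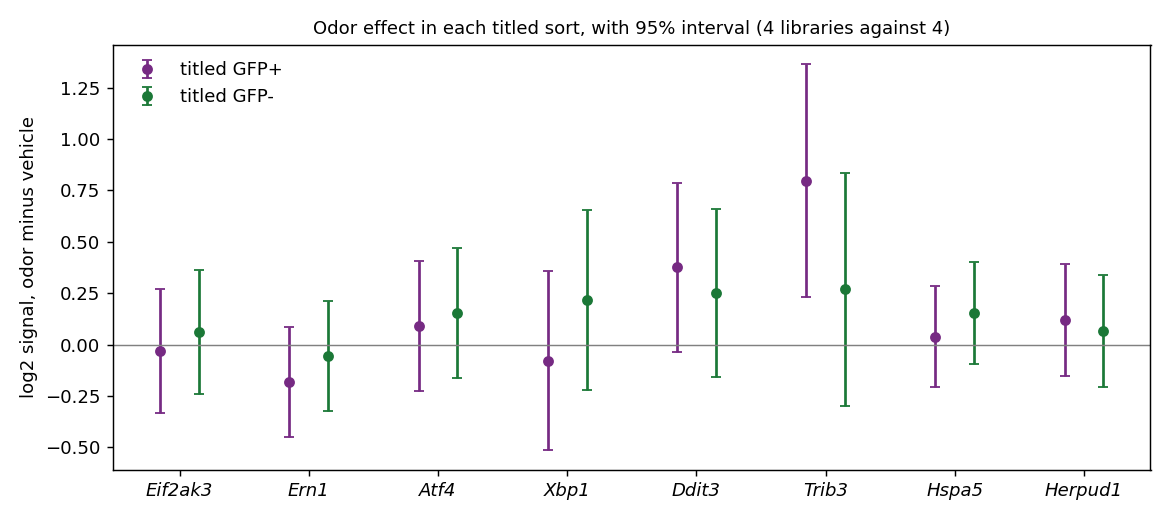
Odor effect (log2 signal, odor minus vehicle) of the 8 members, libraries titled GFP+ left of those titled GFP-, with 95% intervals over 4 libraries against 4. The interval of Trib3 in titled GFP+ libraries, 0.23 to 1.37, lies above 0, and its adjusted p was 0.968.

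Whether the sort difference itself changed with odor was tested as an interaction. It was called for 0 members (0 at an unadjusted p under 0.05 in limma; a replicate block by pool made this 1, Trib3) and for 0.00450% of all probe sets (1 of 22206, with 653 unadjusted, and 1092 with the block). For Xbp1 the odor pools' sort difference less that of the vehicle pools was -0.29 (interval -0.91 to 0.32), for Ern1 -0.13 (-0.50 to 0.25) and for Trib3 0.53 (-0.27 to 1.33), each with an adjusted p of 1.00. The 3 calls of the vehicle pools are thus not shown to differ from the odor pools.

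Other genes of the response and of the ER, 134 in 5 lists, were counted beside the members. In odor pools 9 of them passed as higher in titled GFP+ and 8 as lower, and in vehicle pools 8 as higher and 3 as lower (11 higher and 6 lower with the pool as a replicate block). The 17 calls in odor pools and the 11 in vehicle pools of 134 stand beside the 20.9% and 17.3% called over all probe sets. The split with a common array median was 6 higher and 91 lower in odor pools, and 5 higher and 88 lower in vehicle pools. Of the genes called on the deposited scale, 10 genes were called in both agents and in the same direction, 58.8% of the odor list and 90.9% of the vehicle list. The median over the 134 was -0.07 in odor pools and -0.03 in vehicle pools. The calls between odor and vehicle were 0 in both sorts (7 in titled GFP+ and 2 in titled GFP- libraries at an unadjusted p under 0.05 in limma).

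Targets of ATF4 and CHOP held the largest differences of the 5 lists. Of 28 genes, 6 were called in odor and 5 in vehicle pools, all higher in titled GFP+, and 22 and 23 were not called. Over all probe sets, 20.9% and 17.3% were called in either direction (11.0% and 10.2% higher). The list medians were 0.05 and 0.09. Ndrg1, a stress- and hypoxia-induced gene, averaged 8.06 in odor titled GFP+ and 5.88 in odor titled GFP- libraries, a difference of 2.18 (SE 0.24), and differed by 2.19 in vehicle pools. Nupr1, a stress-induced chromatin protein, was higher by 2.08 (SE 0.27) in odor and 1.20 in vehicle pools, and its vehicle call was lost without vehicle pool 4. Atf3, an immediate stress-response transcription factor, was higher by 1.89 (SE 0.26) in odor and 1.67 in vehicle pools, and was called under every alternative run. Slc7a11, Gadd45a and Psat1 make up the other calls and were named after their values were seen, and without 1 pool the calls of Psat1 in odor pools (pool 1 or 2) and of Gadd45a in vehicle pools (any pool) were lost. Ndrg1, Nupr1, Slc7a11 and Psat1 stayed below the 95th percentile of the negative controls in all libraries. Trib3, a target of the same factors, had the opposite sign in the same libraries.

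The remaining lists had few calls. Their counts, here and below, stand beside 20.9% of all probe sets called in odor and 17.3% in vehicle pools. Of 19 further sensors and translation regulators, 1 was lower in odor pools, Traf2, an adaptor that binds IRE1, at -0.50 (SE 0.14), and 1 in vehicle pools, Creb3l1, an ER-bound transcription factor, at -0.73 (SE 0.24). Of 32 ER lumen chaperones and folding enzymes, 1 was higher and 3 were lower in odor pools, and 1 was higher and 1 lower in vehicle pools. P4hb, protein disulfide isomerase, was higher by 0.43 in odor and 0.44 in vehicle pools, and Dnajb11, a co-chaperone of BiP, was lower at -0.41 and -0.43. Cdnf, a secreted ER-resident trophic factor, was lower in odor pools at -1.09 (SE 0.16), and Fkbp2, an ER prolyl isomerase, at -0.53 (SE 0.18). Traf2 and Cdnf were dim, with means of 8.98 and 9.13 in odor titled GFP- libraries, their higher group. In that group neither exceeded the 95th percentile of the negative controls on any array.

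Of 21 genes of ER-associated degradation, 1 was higher and 1 lower in both agents. Edem1, which hands misfolded glycoproteins over to degradation, was higher by 1.06 (SE 0.19) in odor and 0.98 (SE 0.19) in vehicle pools, and was called under every alternative run. In odor titled GFP- libraries, its lower group, Edem1 averaged 9.03 and exceeded the 95th percentile of the negative controls on 0 of 4 arrays. Selenos, a selenoprotein of the retrotranslocation complex, was lower at -0.56 and -0.48. Of 34 genes of translocation and export, 1 was higher and 3 were lower in odor pools, and 1 was higher in vehicle pools. Stt3a, a catalytic subunit of the oligosaccharyltransferase, was higher by 0.42 in odor and 0.43 in vehicle pools, and the COPII coat genes Sec24d and Sec23b and the signal receptor subunit Srprb were lower in odor pools, at -0.51, -0.47 and -0.44. Of 10 genes of the receptor feedback, none passed in either agent: Rtp2, a receptor-trafficking protein, had -0.46 in odor pools (limma adjusted p = 0.107), and Adcy3, the adenylyl cyclase of odor transduction, -0.26 in vehicle pools (adjusted p = 0.144).

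Several calls of these lists depended on the scale. With a common array median Stt3a was at 0.05 in odor and 0.06 in vehicle pools (adjusted p = 0.756 and 0.717), and P4hb at 0.07 in both (adjusted p = 0.628 and 0.620), and neither passed. Psat1 in odor pools and Gadd45a in vehicle pools lost their calls there too. The lower calls of Dnajb11 and Selenos in both agents, and of Traf2, Fkbp2, Sec23b, Sec24d and Srprb in odor pools, were lost when arrays were centred on neuron markers. Several calls also rested on single pools. In odor pools they were lost without pool 1 or pool 4 for Traf2 and Dnajb11, pool 1 or 2 for P4hb, pool 1, 3 or 4 for Fkbp2, pool 1 or 3 for Sec24d, pool 1, 2 or 3 for Sec23b, pool 3 or 4 for Srprb and any pool for Stt3a. In vehicle pools they were lost without pool 1, 2 or 3 for Dnajb11, pool 2 or 4 for Selenos and any pool for Creb3l1, P4hb and Stt3a.

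**Figure D4:**
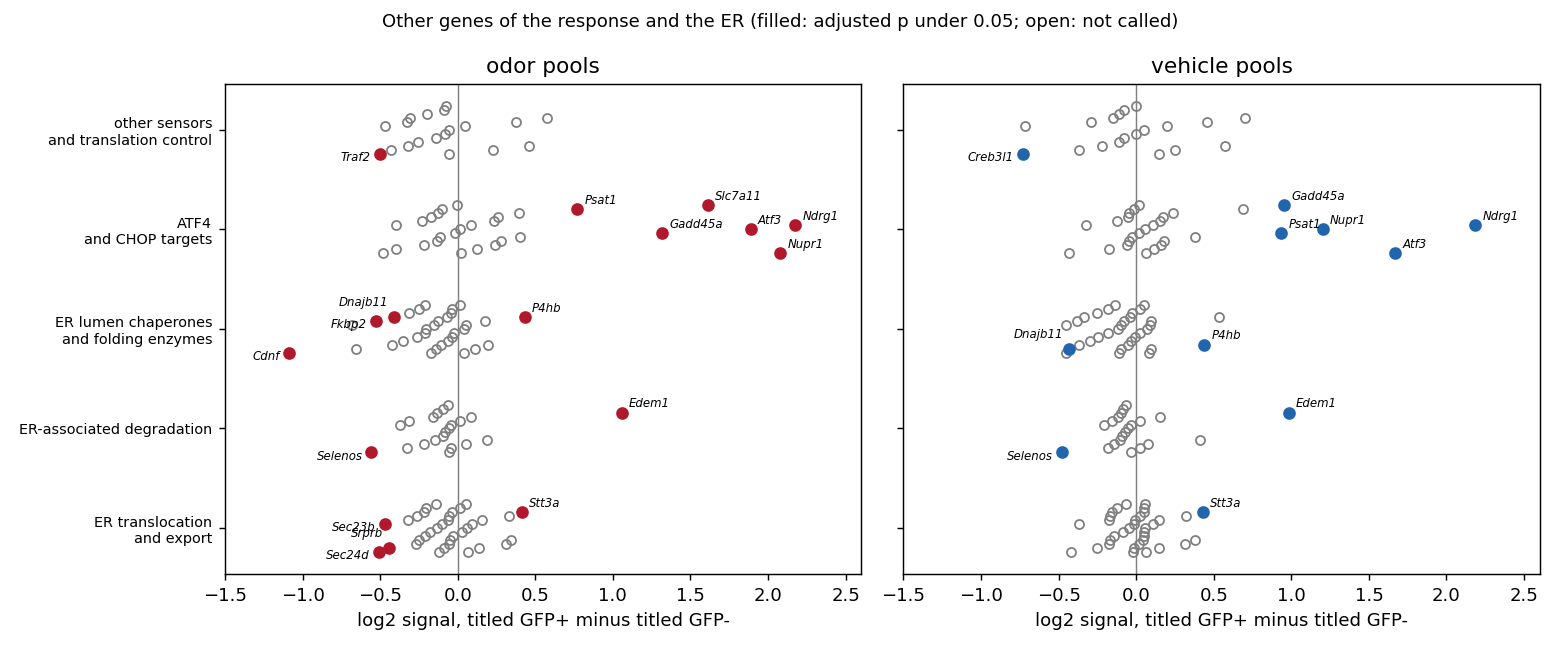
Sort difference (log2 signal, titled GFP+ minus titled GFP-) of 134 other genes in 5 lists, odor pools left and vehicle pools right. Filled dots with names passed an adjusted p of 0.05 and open dots did not. The called ATF4 and CHOP targets all lie above 0, led by Ndrg1 at 2.18 and 2.19.

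Markers of several other cell types moved with the titled sort by far more than the members did, though by list median not those of every type. The list median was -0.02 in odor and -0.11 in vehicle pools for horizontal basal cells, and -0.18 and -0.21 for respiratory cells. For ensheathing glia it was -0.02 and 0.07, and for endothelial cells and fibroblasts 0.12 and 0.10. Summed log2 signals of the respiratory list overlapped between the sorts, while those of the other lists just named were higher in titled GFP+ without overlap in both agents. In odor pools horizontal basal cell markers summed to 10.45 to 12.25 in titled GFP+ and 8.21 to 8.94 in titled GFP- libraries. Glia markers gave 15.31 to 16.30 and 12.13 to 14.33, and endothelial and fibroblast markers 10.71 to 13.16 and 8.67 to 8.98. Called higher in odor pools were 2 of 9 horizontal basal, 2 of 8 glia and 4 of 14 endothelial and fibroblast markers, with 1 of the last list lower. In vehicle pools 1, 2 and 2 of these lists were higher. Of 9 respiratory markers, 1 was higher and 1 lower in both agents. Over all probe sets 20.9% were called between the sorts in odor and 17.3% in vehicle pools. Neutrophil markers were called higher in titled GFP+ for 15 of 15 genes in both agents. Their summed log2 signal was 18.67 to 19.87 in odor titled GFP+ and 9.85 to 11.49 in odor titled GFP- libraries, and 18.79 to 19.24 in vehicle libraries titled GFP+ and 9.72 to 10.91 in vehicle titled GFP- libraries. Macrophage markers were higher for 9 of 14 in odor and 11 of 14 in vehicle pools, sustentacular cell markers for 12 of 17 in both, microvillar cell markers for 14 and 13 of 15, and progenitor and cycling cell markers for 12 of 13 in both. Of the neuron lists, immature neuron markers were higher in titled GFP+ for 8 of 19 in odor and 10 of 19 in vehicle pools, with list medians of 0.30 and 0.43. Mature neuron markers were lower for 6 and higher for 1 of 28 in odor pools, and lower for 4 and higher for 1 in vehicle pools, with medians of -0.27 and -0.19.

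Xbp1 is itself known as a plasma cell factor, so B and plasma cell markers were summed without it and without Ebf1, which olfactory neurons express. Of these 10 markers, 5 were higher in titled GFP+ in both agents. They summed to 9.54 to 11.31 in odor titled GFP+ and 7.59 to 7.79 in odor titled GFP- libraries, and to 10.17 to 10.95 in vehicle libraries titled GFP+ and 7.64 to 7.76 in vehicle titled GFP- libraries. In libraries titled GFP-, 9 of the 10, among them Jchain, Mzb1 and Cd79a, were not above the median negative control on any array, and Mzb1, Tnfrsf17 and Irf4 were not above it in titled GFP+ libraries either. In odor titled GFP+ libraries Pou2af1 and Prdm1 were not above it on any array as well. The part of these cell types and of mature and immature neurons in the differences of Xbp1, Ern1, Trib3, Atf3 and Edem1 was not tested, and in such bulk samples a different share of a cell type and a different amount of RNA per cell cannot be told apart.

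**Figure D5:**
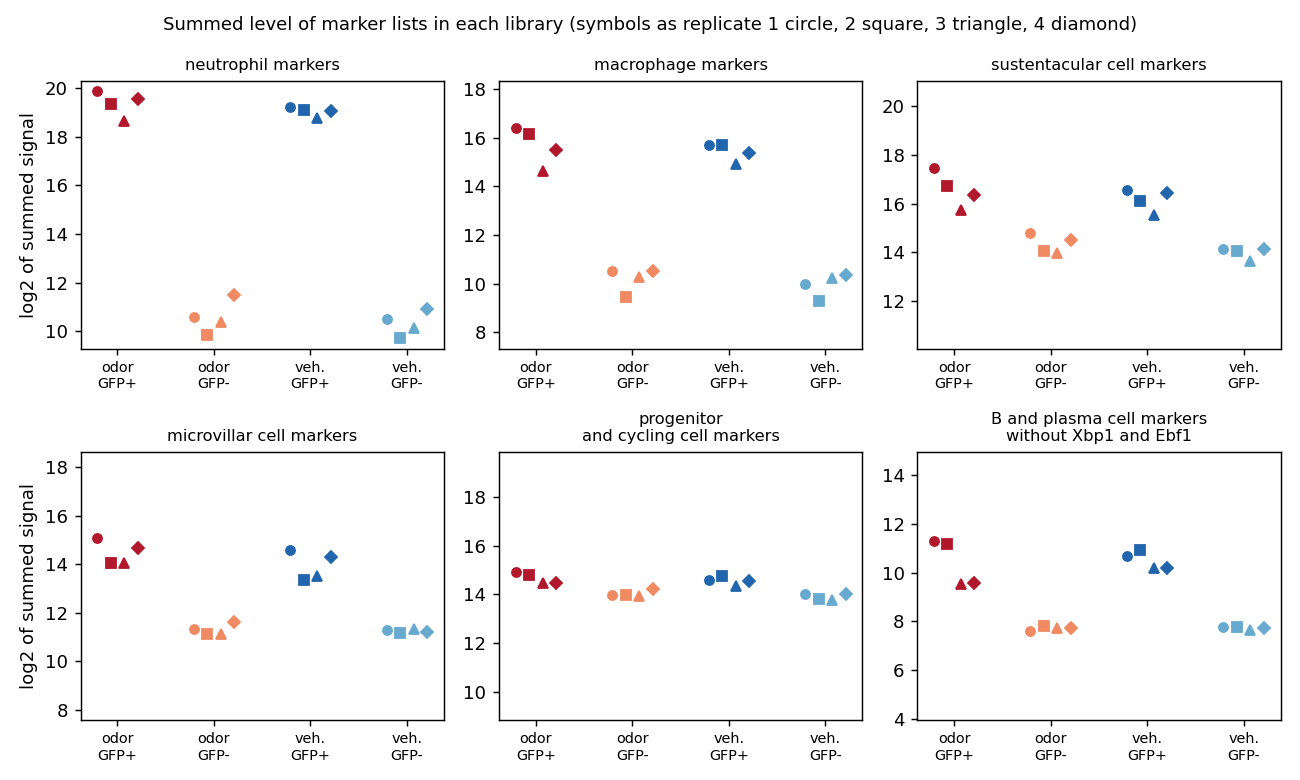
Summed signal (log2) of markers of 6 of 15 listed cell classes in each of the 16 libraries, with symbols for pools 1 to 4 and axes of equal height. All 4 libraries titled GFP+ lie above all 4 titled GFP- in both agents for each of the 6 classes, by the widest gap for neutrophil markers, at 18.67 to 19.87 in odor titled GFP+ and 9.85 to 11.49 in odor titled GFP- libraries.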

How the data were processed

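Per the labels' protocols, biotinylated cRNA from 50 to 100 ng RNA was hybridised to Clariom S mouse arrays. The authors deposited log2 signals. The submitters' processing notes name Affymetrix Expression Console; its background correction and normalization settings are not given in those notes or the labels, and the number of arrays limits the precision. From 28846 probe sets, 6640 controls (5222 negative) were left out, leaving 22206. Symbols came from the platform annotation.

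Groups follow the sample titles. limma 3.58.1 (R 4.3.3) fitted 4 group means on 16 arrays (lmFit, eBayes, 12 residual degrees of freedom, prior 4.49), checked on simulated data, with Benjamini-Hochberg adjusted p-values over all 22206 probe sets at 0.05. The sorts of a pool come from the same mice and deviated together (correlations 0.158 to 0.399 over 8 pools), so a pool block was fitted beside it. Other alternatives were quantile normalization, centring on the array median or on 28 mature neuron markers, a filter on dim probe sets, a variance trend, fewer groups, and leaving out each pool.

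The member genes and the lists were chosen with earlier results of these data known. Named genes were all members, up to 3 called genes per list and direction, or the largest value where none was called; the rule for genes of like profile named none, as no member was called in both sort comparisons. Figures used Python 3.11.15 and matplotlib 3.10.9.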

Additional observations from a re-analysis of the deposited data

Results flagged for a closer look

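In vehicle libraries titled GFP-, Ddit3 of pool 2 stood apart from its group: it had 11.58, against 11.90 to 11.94 in the other 3 libraries. Its gap to the nearest of these was a share of 0.904 of the group's range, above Dixon's 95% critical value. Such a test was made in 32 groups (8 genes, 4 groups each), and chance gives about 1 in 20. Ddit3 was lowest in pool 2 in 3 of 4 groups, where the 2 sorts of a pool share mice and odor and vehicle pools hold different mice.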

How the results depend on the processing

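The deposited scale limits the sort results most: array medians are 6.79 to 6.90 in titled GFP+ and 6.42 to 6.52 in titled GFP- libraries, 4 pools stand in each group, and Ern1 lies near the level of the brighter negative controls. Over all probe sets, calls between the sorts, 4638 in odor and 3851 in vehicle pools, became 15554 (1875 higher) in odor and 15630 (1762 higher) in vehicle pools under median centring. They were 16606 in odor and 16865 in vehicle pools when the pool block was added to it. The dim filter, which kept 7533 probe sets and dropped Ern1, left 2070 in odor and 1510 in vehicle pools. In odor pools the higher and lower calls were 2449 and 2189 as deposited, 2334 and 3300 after quantile normalization, and 2850 and 815 after neuron marker centring. In vehicle pools they were 2260 and 1591, 2148 and 2954, and 2283 and 914 under the same settings. Leaving out 1 pool gave 3037 to 3967 calls in odor and 2722 to 3102 in vehicle pools. Called members in odor pools (0) became 5 under median centring, 6 with the pool block and median centring and 2 with the pool block and neuron marker centring; in vehicle pools (3) they became 1 under neuron marker centring and 0 to 1 without 1 pool. Other pathway genes called in odor pools (17) became 97, 107 (pool block with median centring), 9 (only the groups compared) and 9 to 14 (without 1 pool); in vehicle pools (11) they became 17 with the pool block, 93, 101 and 5 to 7. The pool block with either centring was chosen after seeing the data. Under it with median centring, Atf4 in odor pools turned to -0.29 (adjusted p = 0.0359) and Hspa5 in vehicle pools to -0.27 (adjusted p = 0.0355); the cause was not tested. On the deposited scale the pool block changed no member's call.

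In titled GFP+ libraries the odor effects over all probe sets (2 calls) became 1 with the pool block. They were also 1 with a replicate block by number and with the variance trend. They became 0 under median centring, under the dim filter and with only the groups compared, and 0 to 3 without 1 pool. In titled GFP- libraries (4 calls) they were 3 whichever pool was left out. The interaction (1 call) became 0 with the pool block. Same-numbered odor and vehicle libraries had correlations of 0.174 to 0.278 in titled GFP+ and 0.073 to 0.406 in titled GFP-; the labels give the numbers no meaning across agents and not every pair was over 0.1, so they were not treated as pairs. Under all alternatives run, 0 members were called for odor effects or the interaction.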
